A study of Mus musculus with 32 samples.

Results

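Collagens are the proteins that make up most of the fibres and sheets outside cells. The 44 mouse genes whose symbol has the form Col, a type number, the letter a and a chain number were taken from the 55806 gene identifiers of 4 count tables, with identifiers matched to symbols by GENCODE vM21. They were described as 11 fibrillar genes (types I, II, III, V, XI, XXIV and XXVII), 8 basement membrane genes (the type IV chains, Col15a1 and Col18a1) and 25 other collagen genes. The tables hold RNA from embryonic mouse kidneys that carried 1 of 2 mutant alleles of Mllt1, the gene of the chromatin reader ENL, or none. The mutant alleles T1 and T3 change a short stretch of the YEATS domain of ENL, were switched on by Cre, and were heterozygous (EnlT1/+ or EnlT3/+), with Enl+/+ as the control. Cre came from Six2-TGCtg/+, a BAC transgene active in nephron progenitors and reported to disturb Six3 expression, or from Foxd1GC/+, a knock-in active in stromal progenitors that disables the Foxd1 allele it sits in, and the controls carried the same Cre allele as the mutants. Whole Six2-TGC kidneys at E18.5 gave 2 ENL-WT, 2 ENL-T1 and 2 ENL-T3 libraries. Whole Foxd1-GC kidneys at E18.5 gave 3 ENL-WT and 3 ENL-T1 libraries. Cells that Cre had marked with tdTomato (tdT+) were sorted from Six2-TGC kidneys at E14.5 (3 ENL-WT and 3 ENL-T1 libraries) and E18.5 (3 and 3), and from Foxd1-GC kidneys at E18.5 (4 and 4).

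A collagen protein is a rod of chains wound around each other, and each chain has a gene of its own. Fibrillar collagens pack side by side into the cables of connective tissue, type VI forms beaded microfilaments around cells, and a set of smaller collagens sits on the fibril surface. Type IV chains instead form the meshwork of basement membranes: the Col4a1 and Col4a2 chains do so in nearly all tissues, while the Col4a3, Col4a4 and Col4a5 chains make the mature glomerular basement membrane and come from podocytes. In the kidney, nephron progenitors give rise to the epithelium of the nephron, podocytes included, and Foxd1-positive progenitors give rise to the stroma, which lays down interstitial collagen.

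Library totals were 106005614 to 157266455 counts in whole Six2 kidneys, 67137194 to 79343015 in whole Foxd1 kidneys, 76510702 to 137888792 in sorted Six2-lineage cells and 2557443 to 3508381 in sorted Foxd1-lineage cells. Levels are given in CPM, the reads of a gene per 1000000 counted reads of the library, after trimmed-mean (TMM) scaling, and levels of different genes are compared only per kilobase of exon. Genotypes were compared with edgeR's quasi-likelihood test over all genes that passed its low-count filter, with Benjamini-Hochberg adjustment, and a gene was called when the adjusted p was below 0.05 and the change exceeded 1.5-fold. A value after ± is the standard error for a log2 fold change and the standard deviation for a level. The labels do not state that libraries of a group came from separate animals, so p-values measure the spread between these libraries. Where genotypes are said not to overlap, this describes the few libraries only, and the share of all genes without overlap was not computed. In sorted Six2-lineage cells at E18.5 it also held for uncalled members such as Col2a1, Col18a1 and Col26a1. A list of 5 nephron progenitor markers (Six2, Cited1, Eya1, Crym and Osr1) summed to 1654 to 1934 CPM in ENL-WT Six2-lineage cells at E14.5, 448 to 586 CPM at E18.5 and 97.8 to 152 CPM in ENL-WT Foxd1-lineage cells. A list of 7 stromal markers (Foxd1, Pdgfra, Pdgfrb, Meis1, Tcf21, Lum and Dcn) summed to 2889.5 to 3529 CPM there, against 327 to 371 CPM at E14.5 and 158 to 211 CPM at E18.5 in the Six2 lineage. Foxd1 itself was at 137, 163 and 142 CPM in ENL-WT Six2-lineage cells at E14.5. In ENL-WT Foxd1-lineage cells, sorted at E18.5 only and carrying 1 disabled Foxd1 allele, it was at 57.3, 70.5, 62.0 and 76.1 CPM. At E18.5 its mean was 38.2 CPM in ENL-WT Six2-lineage cells and 66.4 CPM in ENL-WT Foxd1-lineage cells. The 7 podocyte markers summed to 534 to 923 CPM in ENL-WT Foxd1-lineage cells, so these cells were not free of podocyte RNA. Mllt1 counts do not tell the mutant from the wild-type allele and check no label.

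Stretches upstream of 3 collagen genes are printed, and no result below rests on their letters. The first lies between Col4a3 and Col4a4, neighbours read in opposite directions, which fell in every E18.5 comparison with the control. The others precede Col23a1, which rose in sorted cells of both lineages, and Col3a1, a fibrillar gene of the stroma. The stretches are from RefSeq on GRCm38.p6, 5′ to 3′ on the strand of the gene, and end at the base before the annotated start. The RefSeq promoter table held 35 of the 44 collagen genes. The whole gap of 71 bases between the starts of Col4a3 and Col4a4, printed on the strand of Col4a4, lies at chr1:82586850-82586920 (minus strand). The 250 bases before Col23a1 lie at chr11:51289670-51289919 (plus strand) and those before Col3a1 at chr1:45311288-45311537 (plus strand). All 3 stretches overlap no annotated exon, whether they lie in an intron of another gene was not checked, and capitals mark a motif match on either strand. The TATA box was searched as TATAAA. The CCAAT box was searched by the 5 letters of its name, and the box that binds Sp proteins, named the Sp box here, was searched as GGGCGG.
Col4a3 start to Col4a4 start: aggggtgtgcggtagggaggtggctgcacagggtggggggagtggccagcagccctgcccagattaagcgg
Col23a1: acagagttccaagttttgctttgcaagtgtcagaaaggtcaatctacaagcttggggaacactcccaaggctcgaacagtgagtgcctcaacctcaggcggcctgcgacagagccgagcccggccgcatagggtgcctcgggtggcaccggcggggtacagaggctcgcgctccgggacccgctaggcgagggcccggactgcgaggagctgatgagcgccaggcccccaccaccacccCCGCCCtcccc
Col3a1: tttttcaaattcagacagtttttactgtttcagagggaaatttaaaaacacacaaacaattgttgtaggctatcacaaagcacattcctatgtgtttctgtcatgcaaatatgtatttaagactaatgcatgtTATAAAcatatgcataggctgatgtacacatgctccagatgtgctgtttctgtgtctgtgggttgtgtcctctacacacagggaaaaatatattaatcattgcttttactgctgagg
The gap between Col4a3 and Col4a4 held none of the 3 motifs. Among 32851 promoters, 4.41% held the TATA box, 13.3% the CCAAT box and 20.7% the Sp box in the same window. The Col23a1 stretch held 1 Sp box match on the opposite strand, as did 32.7% of promoters at least once. The Col3a1 stretch held 1 TATA box match, as did 12.4% of promoters at least once. Such matches describe the letters only.

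The first comparison asked how the collagen genes differ between the lineages in control cells at E18.5. ENL-WT Foxd1-lineage cells held fibrillar and type VI collagen RNA, while ENL-WT Six2-lineage cells held mainly basement membrane collagen RNA. Of 44 members, 36 passed the filter. Calls here needed an adjusted p below 0.01 and more than a 2-fold difference. By these limits 19 members were higher and 12 lower in the Foxd1 lineage, against 27.2% and 28.2% of all tested genes (55.4% in either direction). Of the 11 fibrillar genes, 6 were higher and 2 lower. Of the 8 basement membrane genes, 1 was higher and 7 were lower. Among the 17 other collagens that were tested, 12 were higher and 3 lower. The median log2 difference was 1.33 over the members and -0.10 over all genes tested. Col11a2 passed the filter only through the Six2 lineage, and Col5a3 only through the Foxd1 lineage. The lineages were also sequenced in different runs, with shorter reads and far higher totals in the Six2 libraries, which cannot be told apart from lineage here. With the Six2 libraries thinned at random to the mean Foxd1 total, the counts were again 19 and 12. In sorted bulk samples, fewer cells of a type and less RNA per cell cannot be told apart either. The 6 endothelial markers summed to 213 to 403 CPM in ENL-WT Foxd1-lineage cells and 43.7 to 53.0 CPM in ENL-WT Six2-lineage cells (6 higher, 0 lower). Macrophage markers (69.6 to 169.6 against 35.9 to 38.8 CPM, 4 of 6 higher, 0 lower) and ureteric markers (131 to 175 against 36.2 to 41.7 CPM, 3 of 5 higher, 0 lower) were higher too. Of 7 podocyte markers, 0 were higher and 5 lower. The part of these cell types in the lineage values was not tested.

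Among the fibrillar genes, Col1a1, a chain of type I, the main fibril collagen, was at 2474, 2424, 3393 and 2375 CPM in the 4 Foxd1-lineage libraries and at 159, 191 and 97.4 CPM in the 3 Six2-lineage libraries (log2 fold change 4.42 ± 0.19, adjusted p = 4.41e-15). Its partner chain Col1a2 was at 2249.5, 1992, 2605 and 1779.8 CPM against 449, 553 and 422 CPM (log2 fold change 2.44 ± 0.12, adjusted p = 2.61e-14). Col3a1, the chain of type III, was at 2529.7, 2044, 2393 and 1819 CPM against 159.5, 199 and 85.0 CPM (log2 fold change 4.15 ± 0.20, adjusted p = 3.90e-14). None of these ranges overlapped. Per kilobase, Col1a1 ranked first of the 44 in the Foxd1 lineage (406 ± 74.0 CPM per kb), followed by Col3a1 (224 ± 33.0), Col1a2 (174 ± 28.6) and Col6a1 (103 ± 11.7). The cartilage collagen gene Col2a1 went the other way, with 10.3, 13.5, 5.78 and 10.4 CPM in the Foxd1 lineage and 199, 211 and 264 CPM in the Six2 lineage (log2 fold change -4.20 ± 0.18, adjusted p = 2.11e-15). Col11a2, which encodes a chain of the cartilage fibril collagen XI, was lower too (log2 fold change -3.48 ± 0.22, adjusted p = 3.47e-12).

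Basement membrane genes led in the Six2 lineage. Col4a1 was at 2351, 2503 and 2285 CPM in Six2-lineage cells and 799.8, 639, 466 and 544 CPM in Foxd1-lineage cells (log2 fold change -1.70 ± 0.11, adjusted p = 3.33e-12). Col4a2, read from a start that overlaps that of Col4a1 on the other strand, was at 1379.8, 1378 and 1341 CPM against 477, 407, 339 and 327 CPM (log2 fold change -1.56 ± 0.09, adjusted p = 1.02e-12). Per kilobase, Col4a1 (319 ± 14.9 CPM per kb), Col4a2 (206 ± 3.34) and Col18a1 (116 ± 8.56), the source of the fragment endostatin, were the 3 most abundant collagen RNAs of Six2-lineage cells. In the stroma Col4a1 was at 82.0 ± 19.3 CPM per kb. The glomerular chains Col4a3 (log2 fold change -3.64 ± 0.12, adjusted p = 5.93e-17) and Col4a4 (log2 fold change -2.55 ± 0.13, adjusted p = 7.09e-14) and the chains Col4a5 (log2 fold change -2.99 ± 0.10, adjusted p = 5.43e-17) and Col4a6 (log2 fold change -3.79 ± 0.16, adjusted p = 4.48e-15) were also lower in the stroma. Col15a1, whose protein bridges basement membranes and nearby fibrils, was the exception, at 218, 225, 202 and 163 CPM in the Foxd1 lineage and 32.0, 29.1 and 17.6 CPM in the Six2 lineage (log2 fold change 3.20 ± 0.15, adjusted p = 1.93e-14).

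Outside these classes, the largest differences toward the stroma were those of Col8a1, a chain of the network-forming type VIII (log2 fold change 5.83 ± 0.25, adjusted p = 4.51e-15), Col14a1, a collagen of the fibril surface (log2 fold change 4.59 ± 0.19, adjusted p = 2.88e-15), and Col6a1 (log2 fold change 4.45 ± 0.16, adjusted p = 2.55e-16). Col9a1, a chain of the cartilage collagen IX (log2 fold change -2.65 ± 0.24, adjusted p = 9.46e-10), Col26a1 (log2 fold change -1.78 ± 0.11, adjusted p = 2.97e-12) and the membrane collagen gene Col13a1 (log2 fold change -1.64 ± 0.16, adjusted p = 6.98e-09) were lower in the stroma. Genes that serve collagens were called too, beside 27.2% of all tested genes higher and 28.2% lower (55.4% in either direction). Of 35 genes for collagen modification, secretion, cleavage and cross-linking, 32 were tested, and 14 were higher and 1 lower in the Foxd1 lineage. The higher ones included Adamts2 (3.96 ± 0.16, adjusted p = 1.01e-15), which trims procollagen, and Lox (3.77 ± 0.14, adjusted p = 2.47e-16), which cross-links fibrils. Of 12 collagen receptors, 10 were tested, and 1 was higher and 4 lower, with Ddr2 (4.77 ± 0.14, adjusted p = 5.91e-18) the higher one. Of 16 other basement membrane genes, 15 were tested, and 2 were higher and 8 lower. The lower ones included the laminin chains Lama1 (-4.81 ± 0.16, adjusted p = 3.27e-17) and Lama5 (-3.62 ± 0.10, adjusted p = 2.36e-18).

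**Figure D1:**
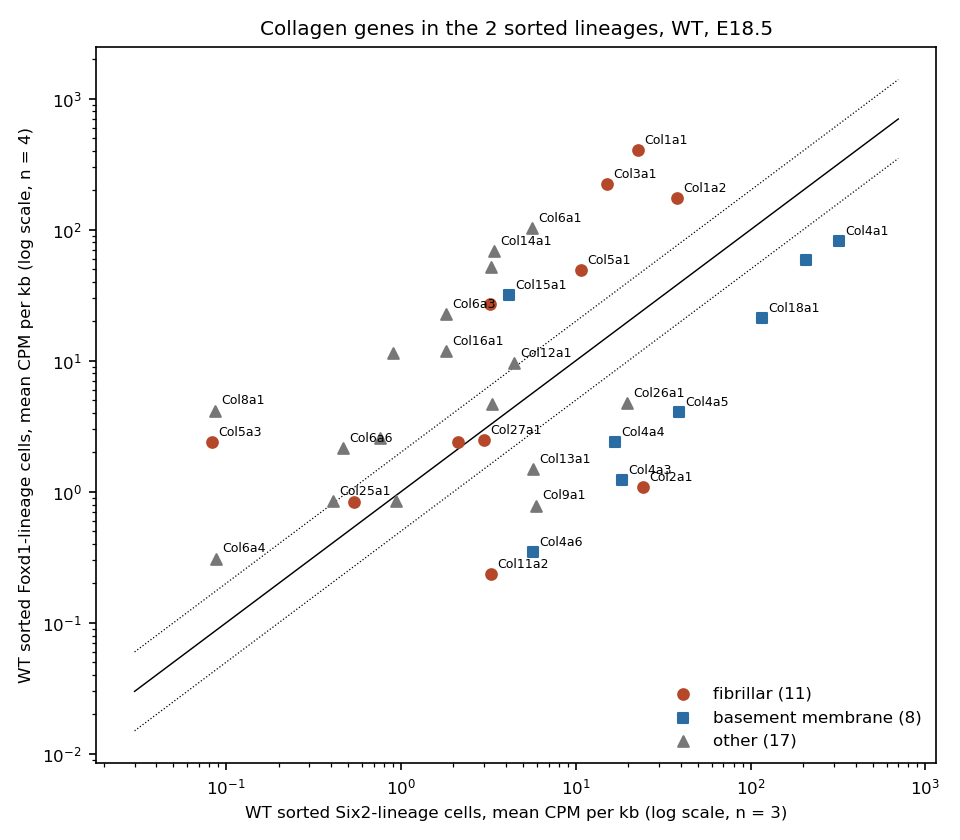
Mean level in CPM per kb (log scales) of the 36 tested collagen genes in ENL-WT sorted cells at E18.5, Six2 lineage on the horizontal axis (n = 3) and Foxd1 lineage on the vertical axis (n = 4). The solid line marks equal levels and the dotted lines a fold change of 2 either way; type I, III, V and VI genes lie above and the type IV genes below.

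The Six2 lineage was also compared between stages in control cells. From E14.5 to E18.5, 23 of the 41 tested members rose and 1 fell by the same limits, against 24.8% and 20.6% of all tested genes (45.5% in either direction). All 8 basement membrane genes rose, as did 5 of 11 fibrillar genes and 10 of the 22 other collagens tested. The median log2 change was 1.43 over the members and 0.02 over all genes. The glomerular chains rose most: Col4a3 was at 0.238, 0.328 and 0.414 CPM at E14.5 and at 169.6, 210.4 and 173 CPM at E18.5 (log2 fold change 9.14 ± 0.19, adjusted p = 8.30e-14), and Col4a4 went from 0.151, 0.0874 and 0.133 to 165, 197 and 176 CPM (log2 fold change 10.50 ± 0.19, adjusted p = 5.00e-14). Col15a1 rose from 0.127, 0.138 and 0.453 CPM to 32.0, 29.1 and 17.6 CPM (log2 fold change 6.78 ± 0.48, adjusted p = 9.49e-09), and Col12a1, a collagen of the fibril surface, from 4.28, 3.09 and 4.76 to 67.7, 69.6 and 65.7 CPM (log2 fold change 4.07 ± 0.22, adjusted p = 3.45e-10). Col1a2 rose (log2 fold change 2.90 ± 0.27, adjusted p = 2.00e-07), while Col1a1 had a log2 difference of 0.50 ± 0.30 (adjusted p = 0.142) and did not pass. The only member that fell was Col22a1, a collagen of tissue junctions (log2 fold change -1.18 ± 0.23, adjusted p = 0.000318). Cells were freed with trypsin at E14.5 and with collagenase II at E18.5, so stage and enzyme cannot be told apart.

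The comparison of ENL-T1 with ENL-WT in sorted Six2-lineage cells asked which collagen genes differed within the nephron lineage. Most of the collagen genes that ENL-WT stroma holds at high levels were higher in ENL-T1 cells, at both stages, and most type IV genes were not. At E14.5, 25 of the 41 tested members rose and 4 fell, against 4.11% and 2.28% of all tested genes (6.4% in either direction). By class these were 8 higher and 1 lower of 11 fibrillar genes, 2 and 2 of 8 basement membrane genes, and 15 and 1 of 22 other collagens tested. At E18.5, 22 rose and 4 fell of 41, against 6.14% and 5.54% (11.7% in either direction): 6 and 0 of the fibrillar, 1 and 3 of the basement membrane, and 15 and 1 of the other genes. The median log2 fold change over the members was 1.20 at E14.5 and 0.62 at E18.5, and over all genes 0.00 and 0.02. The same 19 members rose at both stages, 76% of those that rose at E14.5 and 86.4% of those at E18.5, and no member fell at both. Of the 19 members higher in ENL-WT stroma than in ENL-WT Six2-lineage cells at E18.5, 18 rose and 0 fell at E14.5, in libraries that the lineage comparison did not use. The 18 include Col6a4, whose call could only be higher. Of the 12 members lower in stroma, 1 rose (Col4a4) and 3 fell (Col4a1, Col4a6 and Col11a2). The shares of all genes higher or lower in stroma that rose or fell at E14.5 were not computed. These counts therefore cannot be read as particular to collagens. Col6a4 and Col6a5 passed the filter at E14.5 only through the ENL-T1 libraries, as Col6a5 did at E18.5. Col10a1, Col19a1 and Col28a1 were not tested at either stage.

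Col1a1 and Col3a1 rose at both stages. Col1a1 had 86.3, 79.9 and 151 CPM in ENL-WT and 743, 332 and 654 CPM in ENL-T1 cells at E14.5 (log2 fold change 2.47 ± 0.33, adjusted p = 0.00238). At E18.5 it had 159, 191 and 97.4 CPM in ENL-WT and 349.5, 436 and 401 CPM in ENL-T1 cells (log2 fold change 1.41 ± 0.18, adjusted p = 7.94e-05). Every ENL-T1 library lay above every ENL-WT library at both stages, with the highest ENL-WT library at E14.5 replicate 3 and the lowest ENL-T1 library replicate 2. Col3a1 had 103, 107 and 166 CPM in ENL-WT and 673, 293 and 594 CPM in ENL-T1 cells at E14.5 (log2 fold change 2.08 ± 0.31, adjusted p = 0.00362). At E18.5 Col3a1 had 159.5, 199 and 85.0 CPM in ENL-WT and 275, 297 and 274 CPM in ENL-T1 cells (log2 fold change 0.94 ± 0.21, adjusted p = 0.00587). Its ranges did not overlap either. The difference between the stages did not pass for Col1a1 (log2 value -1.05 ± 0.42 (adjusted p = 0.159)) or Col3a1 (-1.13 ± 0.43 (adjusted p = 0.135)). Even so, the mean of Col1a1 in ENL-T1 cells was 21.6% of the E18.5 ENL-WT stromal level at E14.5 and 14.8% at E18.5. Stroma was sorted at E18.5 only, so the first ratio crosses stages, and both set libraries of different runs against each other.

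Col1a2, which encodes the other chain of type I collagen, parted from Col1a1 at E18.5. At E14.5 it had 56.8, 50.5 and 84.1 CPM in ENL-WT and 375, 155 and 336 CPM in ENL-T1 cells (log2 fold change 2.20 ± 0.32, adjusted p = 0.00363). At E18.5 it had 449, 553 and 422 CPM in ENL-WT and 307, 332 and 314 CPM in ENL-T1 cells, a log2 fold change of -0.57 ± 0.09 (adjusted p = 0.000472) that stayed under the fold threshold. All ENL-T1 libraries were above the control at E14.5 and below it at E18.5. The ratio of Col1a1 to Col1a2 per kilobase was 2.88 to 3.39 in ENL-WT and 3.68 to 4.07 in ENL-T1 cells at E14.5, and 0.437 to 0.671 and 2.16 to 2.48 at E18.5. In Foxd1-lineage cells it was 2.08 to 2.53 in ENL-WT and 2.20 to 2.67 in ENL-T1. ENL-WT Six2-lineage cells at E18.5 were the only sorted group with more Col1a2 than Col1a1 RNA per kilobase. A test of the difference between the stages gave a log2 value of -2.76 ± 0.36 (adjusted p = 0.000346) for Col1a2, one of 12 members that passed that test, against 8.16% of all genes.

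The minor fibrillar genes of type V, which set how fibrils start and how wide they grow, rose at both stages. Col5a1 had 47.8, 41.6 and 49.9 CPM in ENL-WT and 101, 68.8 and 106 CPM in ENL-T1 cells at E14.5 (log2 fold change 1.01 ± 0.15, adjusted p = 0.00419). At E18.5 Col5a1 had 94.4, 99.6 and 77.9 CPM in ENL-WT and 149, 167 and 167 CPM in ENL-T1 cells (log2 fold change 0.84 ± 0.09, adjusted p = 1.56e-05). Col5a2, which lies next to Col3a1, had 10.9, 11.5 and 13.3 CPM in ENL-WT and 38.3, 21.3 and 40.2 CPM in ENL-T1 cells at E14.5 (log2 fold change 1.499 ± 0.22, adjusted p = 0.00356). At E18.5 Col5a2 had 31.8, 34.3 and 26.9 CPM in ENL-WT and 60.3, 64.8 and 69.8 CPM in ENL-T1 cells (log2 fold change 1.07 ± 0.09, adjusted p = 2.83e-06). Col5a3 was far lower, with 0.270, 0.248 and 0.265 CPM in ENL-WT and 2.36, 0.726 and 1.99 CPM in ENL-T1 cells at E14.5 (log2 fold change 2.72 ± 0.43, adjusted p = 0.00491). At E18.5 Col5a3 had 0.515, 0.778 and 0.406 CPM in ENL-WT and 1.23, 1.34 and 1.14 CPM in ENL-T1 cells (log2 fold change 1.13 ± 0.31, adjusted p = 0.0207). In all 3 genes the genotypes did not overlap at either stage. The E18.5 call was lost for Col5a3 without ENL-T1 replicate 1 or 2 or ENL-WT replicate 3 (log2 fold change 0.94 to 1.14, adjusted p = 0.0563 to 0.0782).

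Fibrillar genes known from cartilage and bone were mixed. Col24a1 had 2.03, 0.998 and 1.73 CPM in ENL-WT and 4.47, 4.84 and 3.51 CPM in ENL-T1 cells at E14.5 (log2 fold change 1.45 ± 0.26, adjusted p = 0.00895). At E18.5 Col24a1 had 3.87, 4.06 and 4.42 CPM in ENL-WT and 13.1, 15.1 and 17.7 CPM in ENL-T1 cells (log2 fold change 1.90 ± 0.14, adjusted p = 3.90e-07). Col11a1 had 16.6, 14.8 and 13.0 CPM in ENL-WT and 25.3, 21.0 and 20.9 CPM in ENL-T1 cells at E14.5 (log2 fold change 0.62 ± 0.12, adjusted p = 0.0117) and did not pass at E18.5 (log2 fold change 0.36 ± 0.09 (adjusted p = 0.0136)). Col11a2 fell at E14.5 from 7.36, 8.11 and 7.06 CPM to 3.74, 3.46 and 3.74 CPM (log2 fold change -1.02 ± 0.11, adjusted p = 0.000783), and at E18.5 its log2 fold change was -0.15 ± 0.08 (adjusted p = 0.280). These 2 chains of type XI moved in opposite directions at E14.5, and neither gene's genotypes overlapped. Col2a1 (log2 fold changes 0.21 and -0.31) and Col27a1 (0.18 and -0.48) were not called at either stage. The E14.5 call was lost for Col11a1 without ENL-T1 replicate 1 or ENL-WT replicate 3, or without ENL-WT replicate 3 and ENL-T1 replicate 2 together (log2 fold change 0.51 to 0.58, adjusted p = 0.0275 to 0.0471) and for Col24a1 without ENL-WT replicate 3 and ENL-T1 replicate 2 together (log2 fold change 1.42, adjusted p = 0.0558). A list of 6 cartilage markers (Acan, Matn1, Matn3, Cnmd, Hapln1 and Comp) summed to 3.42 to 5.80 CPM in ENL-WT and 14.3 to 16.9 CPM in ENL-T1 cells at E14.5, and to 10.7 to 14.6 and 52.9 to 57.4 CPM at E18.5, where 2 rose and 3 fell, against 1 and 1 at E14.5. None of the 6 was at 0, and their part in the result was not tested.

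Type VI genes encode the microfilaments between cells and fibrils. Col6a1, Col6a2, Col6a3 and Col6a6 were called higher at E14.5, and Col6a1, Col6a2, Col6a3 and Col6a4 at E18.5, against 4.11% and 6.14% of all tested genes. Col6a4 and Col6a5 at E14.5 and Col6a5 at E18.5 were called higher too. They passed the filter there only through ENL-T1, so a call could only be higher, and they are set apart here. The common chains Col6a1 and Col6a2 are neighbours on chromosome 10. Col6a1 had 7.18, 5.30 and 13.7 CPM in ENL-WT and 48.0, 21.1 and 51.2 CPM in ENL-T1 cells at E14.5 (log2 fold change 2.22 ± 0.41, adjusted p = 0.00991). At E18.5 Col6a1 had 26.6, 30.1 and 17.3 CPM in ENL-WT and 54.7, 70.2 and 64.5 CPM in ENL-T1 cells (log2 fold change 1.36 ± 0.16, adjusted p = 4.53e-05). Col6a2 had 5.78, 5.88 and 8.89 CPM in ENL-WT and 37.9, 15.8 and 38.2 CPM in ENL-T1 cells at E14.5 (log2 fold change 2.18 ± 0.33, adjusted p = 0.00416). At E18.5 Col6a2 had 30.5, 33.0 and 18.4 CPM in ENL-WT and 59.1, 69.0 and 58.6 CPM in ENL-T1 cells (log2 fold change 1.20 ± 0.17, adjusted p = 0.000162). Col6a3, the large chain on another chromosome, had 4.59, 2.71 and 4.94 CPM in ENL-WT and 19.1, 11.7 and 28.2 CPM in ENL-T1 cells at E14.5 (log2 fold change 2.29 ± 0.33, adjusted p = 0.00347). At E18.5 Col6a3 had 27.9, 25.8 and 11.2 CPM in ENL-WT and 62.5, 76.9 and 75.3 CPM in ENL-T1 cells (log2 fold change 1.73 ± 0.24, adjusted p = 0.000164). The genotypes did not overlap for any of these chains at either stage. The long alternative chains Col6a4, Col6a5 and Col6a6, a cluster on chromosome 9, were lower in level.

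Among the chromosome 9 cluster, Col6a4 had 0, 0.0801 and 0.0390 CPM in ENL-WT and 0.330, 0.785 and 0.762 CPM in ENL-T1 cells at E14.5 (log2 fold change 3.94 ± 0.83, adjusted p = 0.0167). At E18.5 Col6a4 had 0.760, 0.674 and 0.811 CPM in ENL-WT and 5.01, 3.21 and 4.98 CPM in ENL-T1 cells (log2 fold change 2.56 ± 0.23, adjusted p = 3.10e-06). Col6a5 had 0.0636, 0.0583 and 0.219 CPM in ENL-WT and 0.474, 0.651 and 0.7105 CPM in ENL-T1 cells at E14.5 (log2 fold change 2.44 ± 0.55, adjusted p = 0.0229). At E18.5 Col6a5 had 0.116, 0.169 and 0.116 CPM in ENL-WT and 1.80, 0.370 and 1.26 CPM in ENL-T1 cells (log2 fold change 3.09 ± 0.55, adjusted p = 0.00121). At E14.5, and for Col6a5 at E18.5, these fold changes rest on low control levels of 0 to 0.219 CPM, where a fitted value depends on the prior count. In the ENL-WT libraries 3 counts give 0.0218 to 0.0238 CPM at E14.5 and 0.0387 to 0.0435 CPM at E18.5 (counting error only). Col6a6 had 2.53, 2.21 and 1.76 CPM in ENL-WT and 5.11, 4.22 and 5.94 CPM in ENL-T1 cells at E14.5 (log2 fold change 1.25 ± 0.19, adjusted p = 0.00374) and a log2 fold change of 0.43 ± 0.19 (adjusted p = 0.156) at E18.5, which did not pass. At E14.5 the call was lost for Col6a4 without ENL-T1 replicate 2 or 3, or without ENL-WT replicate 3 and ENL-T1 replicate 2 together (log2 fold change 3.73 to 3.78, adjusted p = 0.0574 to 0.105) and for Col6a5 without ENL-T1 replicate 2 or 3 or ENL-WT replicate 1 or 2 (log2 fold change 2.12 to 2.40, adjusted p = 0.0650 to 0.0785).

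Of the collagens that sit on or beside fibrils, Col12a1, Col14a1 and Col16a1 were called higher at both stages. Col12a1 had 4.28, 3.09 and 4.76 CPM in ENL-WT and 9.40, 8.79 and 16.1 CPM in ENL-T1 cells at E14.5 (log2 fold change 1.52 ± 0.25, adjusted p = 0.00623). At E18.5 Col12a1 had 67.7, 69.6 and 65.7 CPM in ENL-WT and 93.1, 113 and 106 CPM in ENL-T1 cells (log2 fold change 0.62 ± 0.08, adjusted p = 4.88e-05). Col14a1 had 4.48, 2.64 and 7.72 CPM in ENL-WT and 24.4, 13.98 and 27.5 CPM in ENL-T1 cells at E14.5 (log2 fold change 2.17 ± 0.39, adjusted p = 0.00808). At E18.5 Col14a1 had 27.0, 29.6 and 14.7 CPM in ENL-WT and 47.7, 56.8 and 53.1 CPM in ENL-T1 cells (log2 fold change 1.15 ± 0.19, adjusted p = 0.000693). Col16a1 had 3.75, 2.82 and 6.46 CPM in ENL-WT and 25.9, 10.7 and 23.1 CPM in ENL-T1 cells at E14.5 (log2 fold change 2.22 ± 0.38, adjusted p = 0.00721). At E18.5 Col16a1 had 15.2, 13.4 and 8.23 CPM in ENL-WT and 31.8, 42.3 and 34.4 CPM in ENL-T1 cells (log2 fold change 1.56 ± 0.18, adjusted p = 3.78e-05). In each of these genes the genotypes did not overlap at either stage. Col20a1 rose at E14.5, from 0.334, 0.335 and 0.484 to 1.13, 1.77 and 1.36 CPM (log2 fold change 1.90 ± 0.28, adjusted p = 0.00356), and was at log2 fold change 0.61 ± 0.22 (adjusted p = 0.0714) at E18.5. Col22a1 was at log2 fold change -0.44 ± 0.21 (adjusted p = 0.232) at E14.5 and rose at E18.5, from 1.06, 1.43 and 1.25 to 3.37, 2.35 and 3.00 CPM (log2 fold change 1.23 ± 0.22, adjusted p = 0.00120). The E18.5 call was lost for Col12a1 without ENL-T1 replicate 2 (log2 fold change 0.56, adjusted p = 0.000479).

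The chains of type IX, which coat cartilage fibrils, split. Col9a2 had 2.25, 1.72 and 3.29 CPM in ENL-WT and 6.74, 3.79 and 5.87 CPM in ENL-T1 cells at E14.5 (log2 fold change 1.20 ± 0.28, adjusted p = 0.0262). At E18.5 Col9a2 had 1.75, 2.86 and 2.41 CPM in ENL-WT and 6.63, 7.70 and 7.60 CPM in ENL-T1 cells (log2 fold change 1.65 ± 0.18, adjusted p = 2.28e-05). Col9a3 had 2.65, 1.75 and 2.21 CPM in ENL-WT and 4.88, 3.94 and 5.19 CPM in ENL-T1 cells at E14.5 (log2 fold change 1.10 ± 0.19, adjusted p = 0.00690). At E18.5 Col9a3 had 2.02, 1.54 and 1.91 CPM in ENL-WT and 4.13, 2.87 and 3.04 CPM in ENL-T1 cells (log2 fold change 0.88 ± 0.21, adjusted p = 0.00784). Col9a1, the most abundant of these chains in the Six2 lineage, had 25.99, 29.4 and 35.0 CPM in ENL-WT and 11.6, 17.8 and 15.8 CPM in ENL-T1 cells at E18.5 and fell (log2 fold change -0.99 ± 0.15, adjusted p = 0.000337), while its log2 fold change at E14.5 was 0.37 ± 0.07 (adjusted p = 0.0135). At E14.5 the call was lost for Col9a2 without ENL-T1 replicate 1 or 3 or ENL-WT replicate 1 or 2 (log2 fold change 1.00 to 1.15, adjusted p = 0.0789 to 0.0907).

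Type VIII, type VII and membrane collagens filled out the class. Col8a1 had 0.464, 0.869 and 0.71005 CPM in ENL-WT and 3.97, 3.42 and 4.24 CPM in ENL-T1 cells at E18.5 (log2 fold change 2.51 ± 0.24, adjusted p = 6.69e-06). Col8a2, its partner chain, had 7.27, 6.79 and 7.97 CPM in ENL-WT and 26.7, 11.01 and 23.2 CPM in ENL-T1 cells at E14.5 (log2 fold change 1.49 ± 0.28, adjusted p = 0.0111). Col7a1, which encodes the anchoring fibrils under skin epithelium, fell at E14.5 from 4.68, 5.89 and 4.32 to 2.32, 1.40 and 1.52 CPM (log2 fold change -1.48 ± 0.22, adjusted p = 0.00387), with all ENL-T1 libraries below the control. Among the membrane collagens, Col25a1 had 1.83, 2.40 and 1.69 CPM in ENL-WT and 9.39, 7.91 and 10.2 CPM in ENL-T1 cells at E14.5 (log2 fold change 2.23 ± 0.17, adjusted p = 0.000144). At E18.5 Col25a1 had 6.79, 4.73 and 4.42 CPM in ENL-WT and 18.6, 17.4 and 17.9 CPM in ENL-T1 cells (log2 fold change 1.76 ± 0.15, adjusted p = 2.05e-06). Col23a1 had 16.5, 11.3 and 13.9 CPM in ENL-WT and 24.8, 17.6 and 27.4 CPM in ENL-T1 cells at E14.5 (log2 fold change 0.76 ± 0.19, adjusted p = 0.0320). At E18.5 Col23a1 had 20.6, 18.52 and 17.7 CPM in ENL-WT and 30.8, 41.9 and 34.2 CPM in ENL-T1 cells (log2 fold change 0.92 ± 0.12, adjusted p = 7.00e-05). Both rose at both stages, without overlap. Col13a1 rose at E18.5, with 26.7, 24.9 and 27.1 CPM in ENL-WT and 35.9, 40.3 and 43.2 CPM in ENL-T1 cells (log2 fold change 0.61 ± 0.09, adjusted p = 0.000235). The call was lost for Col8a2 without ENL-WT replicate 2 (log2 fold change 1.43, adjusted p = 0.0521) and for Col23a1 without ENL-T1 replicate 1 or 3 or ENL-WT replicate 2 or 3 (log2 fold change 0.63 to 0.76, adjusted p = 0.0688 to 0.11001) at E14.5. At E18.5 it was lost for Col13a1 without ENL-T1 replicate 3 or ENL-WT replicate 2 (log2 fold change 0.54 to 0.57, adjusted p = 0.00210 to 0.00309).

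Basement membrane genes held calls in both directions. Col4a1 had 628, 576 and 616 CPM in ENL-WT and 365, 403 and 428 CPM in ENL-T1 cells at E14.5 and fell (log2 fold change -0.59 ± 0.06, adjusted p = 0.000692). Col4a2, which was not called, had 372, 331 and 333 CPM in ENL-WT and 247, 265 and 275 CPM in ENL-T1 cells (log2 fold change -0.38 ± 0.06, adjusted p = 0.00450). At E18.5 Col4a1 had 2351, 2503 and 2285 CPM in ENL-WT and 2029, 1904 and 1996 CPM in ENL-T1 cells (log2 fold change -0.26 ± 0.06 (adjusted p = 0.00678), under the fold threshold) and Col4a2 1379.8, 1378 and 1341 CPM in ENL-WT and 1261, 1241 and 1272 CPM in ENL-T1 cells (log2 fold change -0.11 ± 0.06 (adjusted p = 0.194)). ENL-T1 libraries were thus lower for both chains, by less than the threshold in all but Col4a1 at E14.5. Col4a6 fell at E14.5 from 14.7, 12.2 and 11.8 to 7.57, 8.41 and 9.48 CPM (log2 fold change -0.59 ± 0.12, adjusted p = 0.0168), and Col4a5 at E18.5 from 249, 286 and 252 to 166, 164 and 184 CPM (log2 fold change -0.61 ± 0.07, adjusted p = 4.26e-05). Col15a1 instead rose at both stages, from 0.127, 0.138 and 0.453 to 1.18, 0.492 and 2.03 CPM at E14.5 (log2 fold change 2.39 ± 0.64, adjusted p = 0.0436) and from 32.0, 29.1 and 17.6 to 79.5, 84.2 and 82.2 CPM at E18.5 (log2 fold change 1.65 ± 0.16, adjusted p = 7.69e-06), and Col18a1 was not called (log2 fold changes 0.10 and -0.28). At E14.5 the call was lost for Col4a1 without ENL-T1 replicate 1 or ENL-WT replicate 1 or 3, or with scaling by library size only, or without ENL-WT replicate 3 and ENL-T1 replicate 2 together (log2 fold change -0.58 to -0.53, adjusted p = 0.000991 to 0.0107). It was also lost for Col4a6 without ENL-T1 replicate 1 or 2 or ENL-WT replicate 1, or with scaling by library size only, or without the low-count filter, or with replicate number as a block, or without ENL-WT replicate 3 and ENL-T1 replicate 2 together (log2 fold change -0.64 to -0.48, adjusted p = 0.00651 to 0.0627), and for Col15a1 without ENL-T1 replicate 1 or 3 or ENL-WT replicate 1 or 2 (log2 fold change 1.83 to 2.41, adjusted p = 0.0983 to 0.154). At E18.5 the call was lost for Col4a5 without ENL-T1 replicate 2 or ENL-WT replicate 2, or with scaling by library size only (log2 fold change -0.58 to -0.52, adjusted p = 7.59e-05 to 0.000664).

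The glomerular chains moved most. At E18.5 Col4a3 had 169.6, 210.4 and 173 CPM in ENL-WT and 10.98, 9.38 and 11.8 CPM in ENL-T1 cells (log2 fold change -4.10 ± 0.11, adjusted p = 5.87e-11), the largest fall among the members. Col4a4 had 165, 197 and 176 CPM in ENL-WT and 20.7, 15.3 and 20.1 CPM in ENL-T1 cells (log2 fold change -3.25 ± 0.11, adjusted p = 5.01e-10). At E14.5, when both genes were nearly silent, Col4a4 was at 0.151, 0.0874 and 0.133 CPM in ENL-WT and 0.919, 0.751 and 0.930 CPM in ENL-T1 cells (log2 fold change 2.82 ± 0.34, adjusted p = 0.00139), and Col4a3 was at 0.238, 0.328 and 0.414 and 0.309, 0.467 and 0.352 CPM (log2 fold change 0.22 ± 0.37, adjusted p = 0.778). Thus Col4a4 rose and Col4a3 was not called at E14.5, all at under 1 CPM. The ratio of Col4a4 to Col4a3 per kilobase was 0.2505 to 0.595 in ENL-WT and 1.51 to 2.80 in ENL-T1 cells at E14.5, and 0.880 to 0.952 and 1.53 to 1.77 at E18.5. Both genes are read outward from the 71 bases printed above. Of the 7 podocyte markers, 6 fell in ENL-T1 cells at E18.5, and their sum was 3557 to 4002 CPM in ENL-WT and 637 to 704 CPM in ENL-T1 cells. None was at 0, and the part of podocyte number in the fall of these chains was not tested.

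Values of other cell types' markers stand beside these results. The 7 stromal markers summed to 327 to 371 CPM in ENL-WT and 344 to 482 CPM in ENL-T1 cells at E14.5, where 5 rose and 1 (Foxd1) fell, and to 158 to 211 and 213 to 237 CPM at E18.5, where 4 rose and 2 (Foxd1 and Tcf21) fell. None was at 0. The difference between ENL-T1 and ENL-WT was also taken as a share of the ENL-WT stromal level at E18.5, the only stage with sorted stroma. This share was 17.7% at E14.5 and 9.24% at E18.5 for Col1a1, 17.99% and 6.12% for Col3a1, and 6.94% and 8.51% for Col6a1. Over the 7 stromal markers it was -109% and -42.5% (Foxd1), -0.260% and -2.69% (Tcf21), 7.09% and 2.62% (Dcn), 3.10% and 2.51% (Pdgfrb), 8.86% and 3.39% (Lum), 11.8% and 7.77% (Meis1) and 11.1% and 8.83% (Pdgfra). The same share was 5.45% and 8.02% for Col6a2, 3.55% and 5.99% for Col14a1, 8.24% and 13.1% for Col5a2 and 10.4% and -7.28% for Col1a2. It was 65.7% and 116% for Col25a1, 42.1% and 175% for Col24a1, and 22.2% and 139% for Col6a4, and it was 0.492% and 27.6% for Col15a1. The means of Col25a1, Col24a1 and Col6a4 in ENL-WT stroma were only 10.9, 6.38 and 2.63 CPM, where 3 counts give 0.838 to 1.16 CPM. Col24a1 was not called between the lineages. These members are examples. These ratios set Six2 libraries against libraries of another sequencing run and, for the E14.5 values, of another stage. Nephron progenitor markers summed to 1654 to 1934 CPM in ENL-WT and 819 to 1014 CPM in ENL-T1 (0 rose and 5 fell of 5 tested, median log2 fold change -1.12) at E14.5 and to 448 to 586 CPM in ENL-WT and 182 to 239 CPM in ENL-T1 (0 rose and 5 fell of 5 tested, median log2 fold change -1.76) at E18.5. At E18.5 the proximal tubule markers summed to 1388 to 1865 CPM in ENL-WT and 457 to 499.5 CPM in ENL-T1 (0 rose and 5 fell of 5 tested, median log2 fold change -2.59) and those of the loop and distal tubule to 97.6 to 187 CPM in ENL-WT and 55.3 to 102 CPM in ENL-T1 (0 rose and 4 fell of 4 tested, median log2 fold change -1.33). The 6 macrophage markers summed to 35.9 to 38.8 CPM in ENL-WT and 84.5 to 96.5 CPM in ENL-T1 cells at E18.5 (4 rose), and the 5 red cell markers to 102 to 205 and 1506 to 2217 CPM (4 rose). The 3 Schwann cell markers summed to 3.54 to 4.53 CPM in ENL-WT and 9.31 to 11.7 CPM in ENL-T1 cells at E14.5. At E18.5 they summed to 5.33 to 6.33 and 35.5 to 37.6 CPM (1 rose and 0 fell of 2 tested at each stage). The 6 skeletal muscle markers summed to 3.50 to 5.57 and 8.38 to 11.9 CPM at E14.5. At E18.5 they summed to 5.84 to 7.30 and 12.6 to 13.6 CPM (1 rose and 0 fell of 4 tested at each stage). The part of any of these in the collagen values was not tested.

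**Figure D2:**
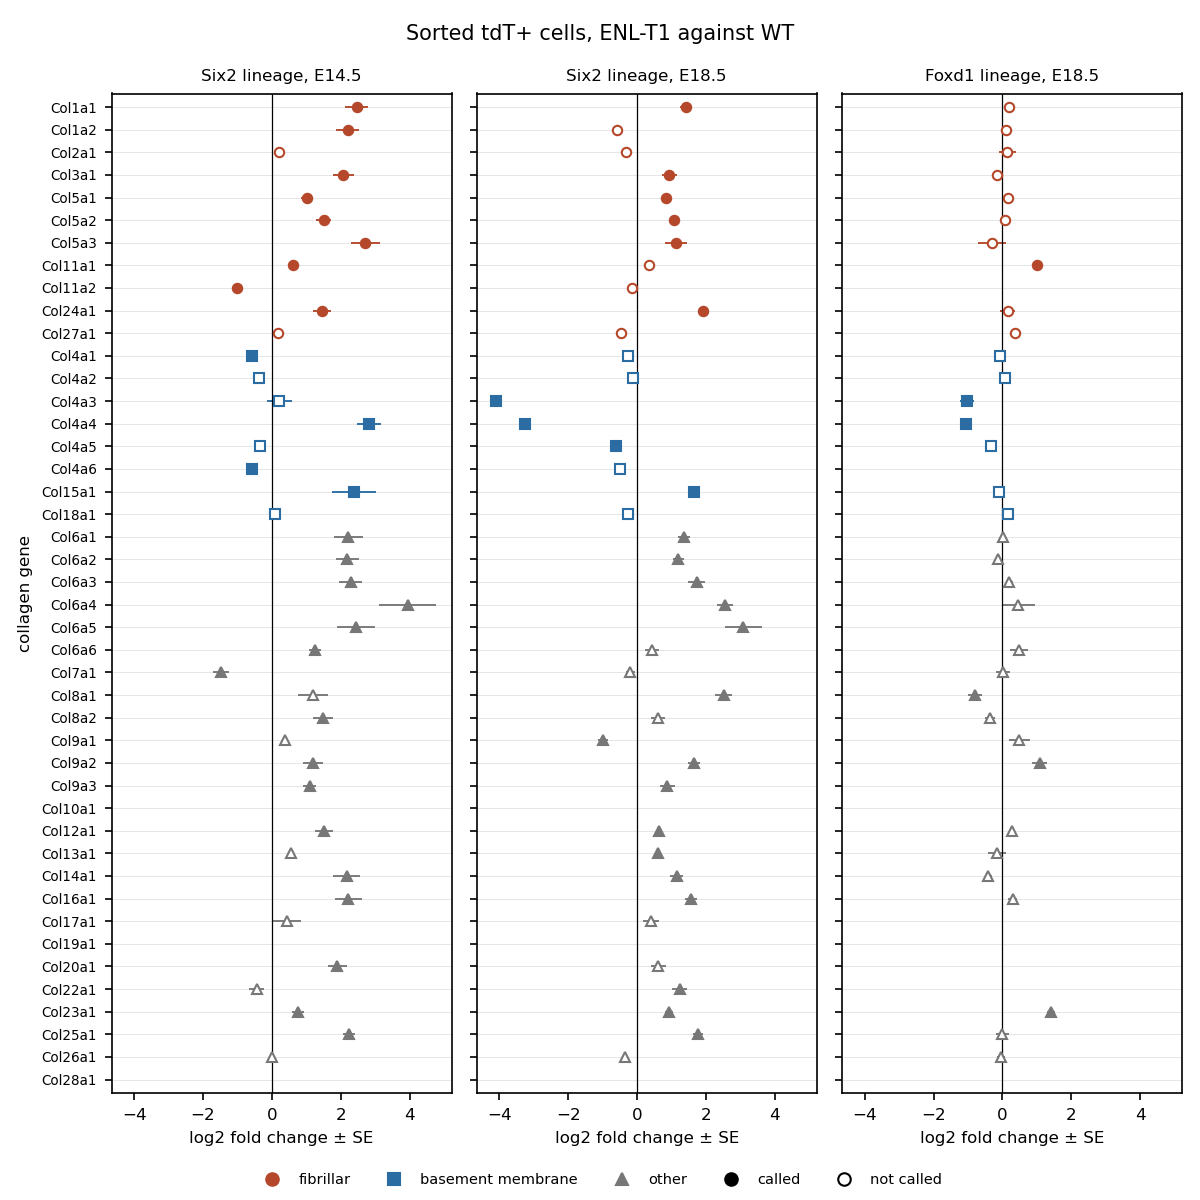
Log2 fold change with its standard error of each tested collagen gene, ENL-T1 against ENL-WT, in sorted Six2-lineage cells at E14.5 (3 against 3 libraries) and E18.5 (3 against 3) and in Foxd1-lineage cells at E18.5 (4 against 4). Filled symbols were called; 25 and 22 members rose in the Six2 lineage and 3 in the Foxd1 lineage, where most lie near 0.

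**Figure D3:**
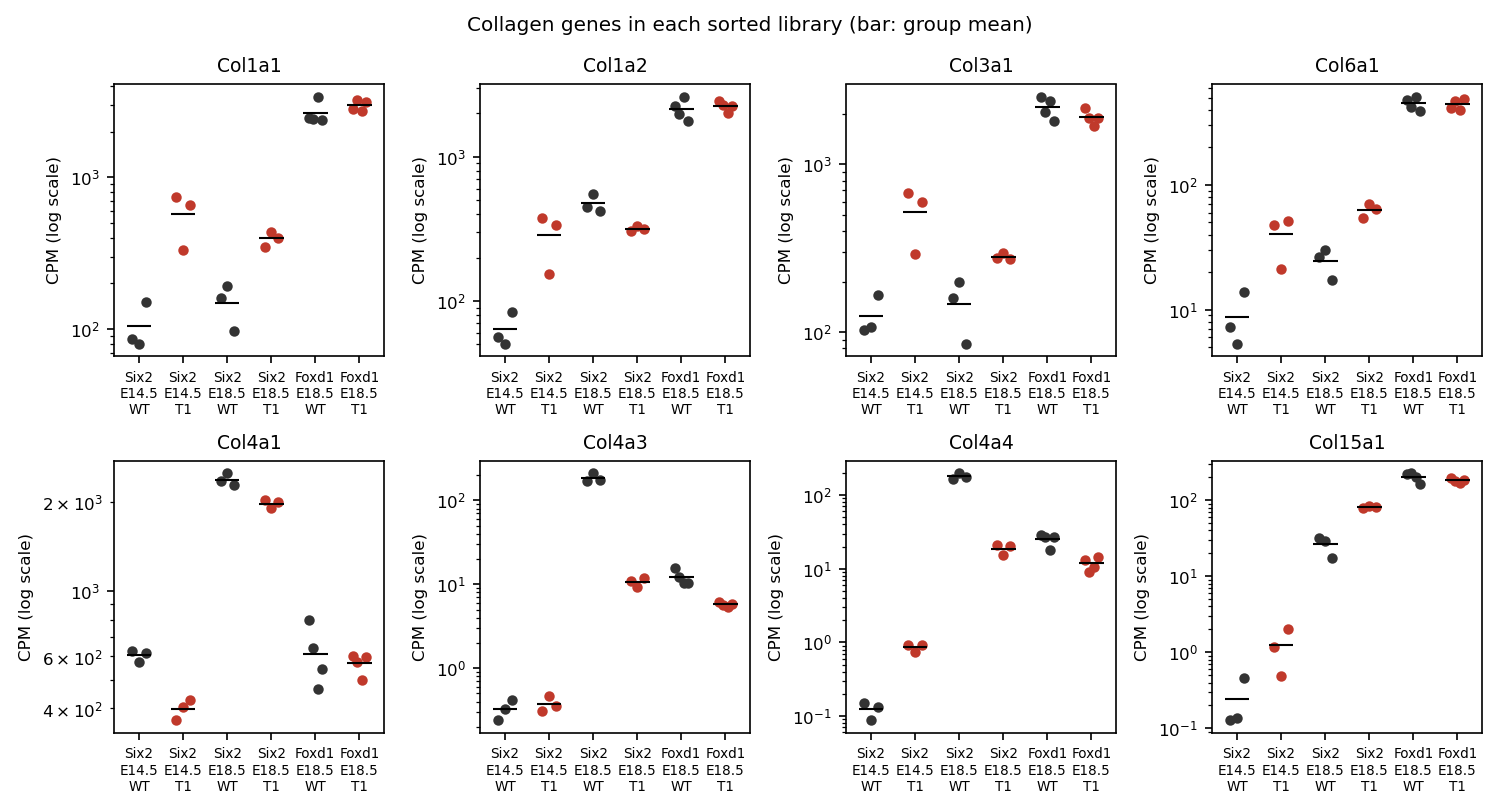
CPM (log scale) of 8 collagen genes in each sorted library, 1 point per library with a bar at the group mean. Col1a1, Col3a1 and Col6a1 in ENL-T1 cells of the Six2 lineage lie between the ENL-WT cells and the E18.5 stroma. Col1a2 in the Six2 lineage is below its control at E18.5, and Col4a3 and Col4a4 are below theirs at E18.5 in both lineages.

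Some genes that serve collagens were called too. Over all tested genes 4.11% rose and 2.28% fell at E14.5, and 6.14% and 5.54% at E18.5. Of 35 genes for collagen modification and cross-linking, 6 rose and 0 fell at E14.5, among them Adamts2 (1.52 ± 0.33, adjusted p = 0.0190), Creb3l1 (1.41 ± 0.23, adjusted p = 0.00537), a factor of collagen secretion, Loxl4 (1.03 ± 0.22, adjusted p = 0.0168) and Pcolce (1.01 ± 0.18, adjusted p = 0.00831), which speeds procollagen cleavage. At E18.5, 2 rose and 6 fell, among them the procollagen protease Tll1 (2.83 ± 0.29, adjusted p = 1.04e-05) and the cross-linking gene Loxl2 (-1.88 ± 0.11, adjusted p = 5.04e-08), with P3h2 (-1.74 ± 0.08, adjusted p = 1.06e-08), which modifies prolines of type IV chains, and Adamts14 (-1.55 ± 0.15, adjusted p = 8.33e-06). Of 12 collagen receptors, 11 were tested at each stage. At E14.5, 1 of them rose (Ddr2 (1.53 ± 0.23, adjusted p = 0.00396)), and at E18.5, 4 rose and 2 fell. Of 16 other basement membrane genes, 15 were tested at E14.5, where 2 rose and 3 fell. All 16 were tested at E18.5, where 6 rose and 1 fell. There the laminin chains Lama2 (2.59 ± 0.11, adjusted p = 2.89e-09) and Lama3 (1.64 ± 0.14, adjusted p = 1.55e-06) rose and Lama5 (-1.03 ± 0.07, adjusted p = 3.50e-07) fell.

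In sorted Foxd1-lineage cells, where interstitial collagen RNA is abundant, the main fibrillar genes were not called with ENL-T1. Of 44 members, 34 passed the filter, 3 rose and 3 fell, against 3.63% and 2.18% of all tested genes (5.81% in either direction). The median log2 fold change was 0.07 over the members and -0.00 over all genes. By class, 1 of 10 fibrillar genes tested rose and 0 fell, 0 of 7 basement membrane genes rose and 2 fell, and 2 of 17 other genes rose and 1 fell. Col6a4 passed the filter only with libraries of both genotypes, and Col9a1 only through ENL-T1. Among the main stromal genes, Col1a1 had 2474, 2424, 3393 and 2375 CPM in ENL-WT and 2834, 3211, 2733 and 3130.5 CPM in ENL-T1 cells (log2 fold change 0.21 ± 0.10 (adjusted p = 0.241)), Col3a1 -0.15 ± 0.09 (adjusted p = 0.354), Col1a2 0.11 ± 0.10 (adjusted p = 0.557) and Col6a1 0.03 ± 0.09 (adjusted p = 0.899) on the log2 scale. Here 3 counts correspond to 0.838 to 1.16 CPM in these shallow libraries, so members below that level could not be followed.

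Among the members that rose, Col23a1, a membrane collagen, had 29.9, 28.5, 25.03 and 23.3 CPM in ENL-WT and 76.1, 79.1, 56.3 and 63.9 CPM in ENL-T1 cells (log2 fold change 1.41 ± 0.12, adjusted p = 2.53e-07). Col11a1 had 33.0, 32.6, 27.0 and 30.9 CPM in ENL-WT and 61.8, 58.2, 58.3 and 60.2 CPM in ENL-T1 cells (log2 fold change 1.00 ± 0.09, adjusted p = 6.01e-07). Col9a2 had 11.7, 6.17, 8.86 and 5.02 CPM in ENL-WT and 19.3, 17.2, 15.9 and 13.9 CPM in ENL-T1 cells (log2 fold change 1.09 ± 0.22, adjusted p = 0.00283). In each of the 3, all ENL-T1 libraries lay above all ENL-WT libraries, and all 3 also rose in the Six2 lineage at E14.5. The glomerular chains fell. Col4a3 had 15.6, 12.3, 10.4 and 10.4 CPM in ENL-WT and 6.07, 5.72, 5.42 and 5.86 CPM in ENL-T1 cells (log2 fold change -1.04 ± 0.20, adjusted p = 0.00223). Col4a4 had 29.1, 27.3, 18.1 and 26.9 CPM in ENL-WT and 13.2, 8.90, 10.5 and 14.502 CPM in ENL-T1 cells (log2 fold change -1.06 ± 0.17, adjusted p = 0.000437), without overlap. Both also fell in the Six2 lineage at E18.5, in other libraries. Of the 7 podocyte markers 0 were called and 6 had a log2 fold change below 0, and they summed to 534 to 923 CPM in ENL-WT and 533 to 680.4 CPM in ENL-T1 (0 rose and 0 fell of 7 tested, median log2 fold change -0.15). Proximal tubule markers summed to 93.6 to 234 CPM in ENL-WT and 50.5 to 80.0 CPM in ENL-T1 (0 rose and 3 fell of 5 tested, median log2 fold change -1.10), and those of the loop and distal tubule to 33.4 to 79.6 CPM in ENL-WT and 9.49 to 31.8 CPM in ENL-T1 (0 rose and 2 fell of 3 tested, median log2 fold change -1.05). The part of these cell types in the fall was not tested. Col8a1 had 33.2, 30.5, 18.9 and 47.7 CPM in ENL-WT and 17.5, 18.8, 16.6 and 19.4 CPM in ENL-T1 cells and fell (log2 fold change -0.80 ± 0.19, adjusted p = 0.0117), with 1 ENL-T1 library (19.4 CPM) above the lowest control, and its call was lost without ENL-WT replicate 4 (log2 fold change -0.57, adjusted p = 0.0336). Col14a1 was under the fold threshold (log2 fold change -0.41 ± 0.10 (adjusted p = 0.0155)). Of the partner genes, Loxl1, a fibre cross-linking gene, fell (-0.61 ± 0.09, adjusted p = 0.000169), and the receptor gene Itga2 (2.24 ± 0.21, adjusted p = 6.01e-07) and the laminin chain Lamb2 (0.66 ± 0.09, adjusted p = 8.32e-05) rose. They were the called members of 31, 9 and 15 tested (of 35, 12 and 16), beside 3.63% of all tested genes higher and 2.18% lower. The 6 macrophage markers summed to 69.6 to 169.6 CPM in ENL-WT and 165 to 223 CPM in ENL-T1 cells, with 5 called higher, and the stromal markers summed to 2889.5 to 3529 CPM in ENL-WT and 2469 to 2987 CPM in ENL-T1 (1 rose and 2 fell of 7 tested, median log2 fold change -0.14). The 6 cartilage markers summed to 9.33 to 17.7 CPM in ENL-WT and 18.9 to 26.1 CPM in ENL-T1 (0 rose and 0 fell of 1 tested, median log2 fold change 0.61). Their part in the collagen values was not tested.

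The difference between the lineages in the effect of ENL-T1 was itself tested, over the 14 sorted libraries of E18.5. Of the 36 members tested, the log2 fold change was greater in the Foxd1 lineage for 8 and greater in the Six2 lineage for 16 at an adjusted p below 0.05, against 8.25% and 7.63% of all genes (15.9% in either direction). For Col6a1 the difference (Foxd1 minus Six2) was -1.35 ± 0.20 (adjusted p = 3.91e-05), for Col1a1 -1.22 ± 0.23 (adjusted p = 0.000576), for Col3a1 -1.11 ± 0.25 (adjusted p = 0.00296) and for Col8a1, higher with ENL-T1 in the Six2 lineage and lower in the Foxd1 lineage, -3.33 ± 0.32 (adjusted p = 1.79e-07). Col4a3 (3.03 ± 0.25 (adjusted p = 2.98e-08)) and Col4a4 (2.17 ± 0.23 (adjusted p = 6.24e-07)) fell less in the Foxd1 lineage. Col23a1, which rose in both, had a difference of 0.47 ± 0.17 (adjusted p = 0.0682) that did not pass. Any effect of the sequencing run that differs between genotypes cannot be told apart from these values.

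The comparisons of whole E18.5 kidneys asked whether the changes are seen in the organ, where stroma supplies most interstitial collagen RNA. In Six2 kidneys all 44 members passed the filter. With ENL-T1, 4 rose and 3 fell, against 2.88% and 4.88% of all tested genes (7.77% in either direction), and with ENL-T3, 5 rose and 4 fell, against 4.34% and 5.28% (9.62% in either direction). Both comparisons share the 2 ENL-WT libraries. None of the 11 fibrillar genes was called in either. Stromal markers summed to 975 to 1102 CPM in ENL-WT, 1301 to 1377 CPM in ENL-T1 and 1408 to 1460.1 CPM in ENL-T3 kidneys (1 rose and 0 fell of 7 with ENL-T1, 3 and 0 with ENL-T3), and macrophage markers to 115 to 116 CPM in ENL-WT, 159 to 169 CPM in ENL-T1 and 166 to 179 CPM in ENL-T3 kidneys (5 rose and 0 fell of 6 with ENL-T1, 5 and 0 with ENL-T3). The part of either in the collagen values was not tested. Col1a1 was at 1459 and 2048 CPM in control kidneys, 1441 and 1559 CPM in ENL-T1 and 1960.3 and 1761 CPM in ENL-T3 kidneys, with log2 fold changes of -0.23 ± 0.16 (adjusted p = 0.435) and 0.09 ± 0.16 (adjusted p = 0.764). Col3a1 was at 2443 and 2840.4, 2518 and 2553 and 2567 and 2446 CPM (-0.06 and -0.08), and Col6a1 at 377 and 407, 459 and 458 and 508 and 431 CPM (0.23 and 0.26). The ENL-WT libraries differed from each other for the type I chains by more than the genotypes did. The median log2 fold change over the members was -0.01 with ENL-T1 and 0.09 with ENL-T3, and over all genes -0.01 and -0.00.

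Of the 8 basement membrane genes, the glomerular chains were called lower in both mutants. In all, 7 of the 8 had a log2 fold change below 0 with each mutant (median -0.36 with ENL-T1 and -0.46 with ENL-T3). At an unadjusted p below 0.05 in edgeR's quasi-likelihood test, 5 and 6 were lower, against 3660 and 3973 of all 23931 genes. All mutant libraries also lay below both controls for Col4a1, Col4a2, Col4a5 and Col4a6, which were not called. Col4a3 was at 67.4 and 70.3 CPM in control kidneys, 22.1 and 23.8 CPM in ENL-T1 and 20.8 and 18.4 CPM in ENL-T3 kidneys, with log2 fold changes of -1.59 ± 0.08 (adjusted p = 4.82e-05) and -1.81 ± 0.08 (adjusted p = 2.74e-05). Col4a4 was at 92.5 and 116, 61.5 and 62.2 and 56.3 and 51.2 CPM, with log2 fold changes of -0.76 ± 0.11 (adjusted p = 0.00290) and -0.96 ± 0.11 (adjusted p = 0.000862). No mutant library reached the lowest control for either gene. The 7 podocyte markers summed to 1031 to 1178 CPM in ENL-WT, 408 to 419.5 CPM in ENL-T1 and 398 to 414 CPM in ENL-T3 kidneys, and 6 of 7 fell in each. Nephron progenitor markers summed to 133 to 156 CPM in ENL-WT, 78.9 to 80.8 CPM in ENL-T1 and 62.8 to 78.4 CPM in ENL-T3 kidneys (0 rose and 5 fell of 5 with ENL-T1, 0 and 5 with ENL-T3). Proximal tubule markers summed to 2308 to 2499 CPM in ENL-WT, 378 to 466 CPM in ENL-T1 and 369 to 414 CPM in ENL-T3 kidneys (0 rose and 5 fell of 5 with ENL-T1, 0 and 5 with ENL-T3), and those of the loop and distal tubule to 846 to 916 CPM in ENL-WT, 380.0 to 423 CPM in ENL-T1 and 351 to 390.3 CPM in ENL-T3 kidneys (0 rose and 4 fell of 4 with ENL-T1, 0 and 4 with ENL-T3). The part of these cell types in the result was not tested. Col9a1 fell too, from 8.57 and 13.7 CPM to 6.22 and 5.70 and 4.29 and 4.51 CPM (-0.90 ± 0.20 (adjusted p = 0.0229) and -1.34 ± 0.21 (adjusted p = 0.00393)), and Col12a1 was called only with ENL-T3, at 239.6 and 371, 202 and 212 and 181 and 191 CPM (-0.72 ± 0.17 (adjusted p = 0.0282)). The call with ENL-T1 was lost for Col4a4 without ENL-WT replicate 2 (log2 fold change -0.56, adjusted p = 0.00129) and for Col9a1 without ENL-T1 replicate 1 or 2 or ENL-WT replicate 2 (log2 fold change -0.95 to -0.50, adjusted p = 0.0314 to 0.172). The call with ENL-T3 was lost for Col12a1 without ENL-T1 replicate 1 or 2 or ENL-T3 replicate 1 or 2 or ENL-WT replicate 2, or in a fit of these genotypes alone (log2 fold change -0.75 to -0.34, adjusted p = 0.00645 to 0.156).

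The genes that rose in whole Six2 kidneys included the membrane collagens Col17a1, Col23a1 and Col25a1. Col17a1, the collagen of the hemidesmosome, was at 1.28 and 1.55 CPM in control kidneys, 4.78 and 5.26 CPM in ENL-T1 and 4.66 and 3.88 CPM in ENL-T3 kidneys, with log2 fold changes of 1.82 ± 0.16 (adjusted p = 0.000408) and 1.59 ± 0.16 (adjusted p = 0.000614). Col23a1 was at 55.0 and 47.3, 81.9 and 79.9 and 115 and 94.4 CPM (0.66 ± 0.11 (adjusted p = 0.00554) and 1.04 ± 0.11 (adjusted p = 0.000628)), and Col25a1 at 12.6 and 14.2, 22.0 and 20.4 and 25.4 and 26.9 CPM (0.66 ± 0.09 (adjusted p = 0.00267) and 0.96 ± 0.09 (adjusted p = 0.000436)). In all 3 the mutant libraries lay above both controls. Col9a2 was at 6.90 and 9.22, 11.4 and 14.2 and 17.8 and 15.7 CPM (0.67 ± 0.16 (adjusted p = 0.0315) and 1.05 ± 0.16 (adjusted p = 0.00406)), and Col6a5 was called only with ENL-T3, at 8.55 and 13.0, 13.6 and 14.04 and 17.1 and 24.4 CPM (0.95 ± 0.22 (adjusted p = 0.0219)). Col17a1 was low in sorted Six2-lineage cells at E18.5, at 1.34, 2.00 and 1.38 CPM in ENL-WT and 1.98, 1.76 and 2.44 CPM in ENL-T1 cells (log2 fold change 0.39 ± 0.24, adjusted p = 0.298), where it was not called. Between ENL-T3 and ENL-T1 kidneys, edgeR's quasi-likelihood test called 0 of 44 members; at an unadjusted p under 0.05, 4 were higher and 2 lower with ENL-T3, and edgeR's exact test called 1 higher. Over all genes 0.00418% were called higher and 0% lower. The call with ENL-T1 was lost for Col23a1 without ENL-WT replicate 2 (log2 fold change 0.58, adjusted p = 0.00930) and for Col9a2 without ENL-T1 replicate 2 or ENL-T3 replicate 1 or 2 or ENL-WT replicate 1 (log2 fold change 0.48 to 0.68, adjusted p = 0.0511 to 0.223). The call with ENL-T3 was lost for Col6a5 without ENL-T3 replicate 2 (log2 fold change 0.68, adjusted p = 0.127).

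In whole Foxd1 kidneys 43 members passed the filter, 4 rose and 3 fell with ENL-T1, against 2.65% and 7.53% of all tested genes (10.2% in either direction). The median log2 fold change was 0.16 over the members and -0.00 over all genes. Col19a1 passed only through ENL-T1. The fibrillar genes Col11a1 and Col2a1 rose. Col11a1 had 19.6, 21.6 and 19.0 CPM in ENL-WT and 40.7, 41.7 and 40.4 CPM in ENL-T1 kidneys (log2 fold change 1.03 ± 0.06, adjusted p = 1.31e-07). Col2a1 had 48.0, 38.4 and 41.0 CPM in ENL-WT and 73.1, 73.3 and 75.0 CPM in ENL-T1 kidneys (log2 fold change 0.80 ± 0.07, adjusted p = 3.07e-06). Neither overlapped, and Col11a1 had risen in sorted Foxd1-lineage cells too. Col17a1 had 1.67, 1.34 and 1.29 CPM in ENL-WT and 3.46, 4.12 and 3.40 CPM in ENL-T1 kidneys (log2 fold change 1.35 ± 0.17, adjusted p = 5.38e-05). Col9a3 had 4.13, 4.21 and 3.70 CPM in ENL-WT and 6.91, 6.21 and 5.88 CPM in ENL-T1 kidneys (log2 fold change 0.66 ± 0.12, adjusted p = 0.00104). Col4a3 had 44.3, 44.7 and 47.2 CPM in ENL-WT and 20.4, 31.4 and 29.2 CPM in ENL-T1 kidneys (log2 fold change -0.75 ± 0.12, adjusted p = 0.000287). Col4a4 had 80.2, 80.3 and 81.8 CPM in ENL-WT and 36.2, 47.9 and 48.8 CPM in ENL-T1 kidneys (log2 fold change -0.86 ± 0.09, adjusted p = 9.66e-06). Podocyte markers summed to 1289 to 1323 CPM in ENL-WT and 1059.6 to 1292 CPM in ENL-T1 (0 rose and 0 fell of 7 tested, median log2 fold change -0.12), proximal tubule markers to 2395 to 2491 CPM in ENL-WT and 1099 to 1418 CPM in ENL-T1 (0 rose and 4 fell of 5 tested, median log2 fold change -0.92) and those of the loop and distal tubule to 808 to 889 CPM in ENL-WT and 398 to 543 CPM in ENL-T1 (0 rose and 3 fell of 4 tested, median log2 fold change -0.84). Nephron progenitor markers summed to 260.4 to 277 CPM in ENL-WT and 399 to 499.9 CPM in ENL-T1 (4 rose and 0 fell of 5 tested, median log2 fold change 0.71). The part of these cell types in the collagen values was not tested. Col6a5 fell most, with 2.47, 2.18 and 3.04 CPM in ENL-WT and 0.698, 0.518 and 0.469 CPM in ENL-T1 kidneys (log2 fold change -2.19 ± 0.23, adjusted p = 1.03e-05). Col23a1 was below the fold threshold (log2 fold change 0.53 ± 0.08 (adjusted p = 0.000176)), as was Col1a1 (0.27 ± 0.09 (adjusted p = 0.0270)). The call was lost for Col4a3 without ENL-T1 replicate 1 (log2 fold change -0.58, adjusted p = 1.87e-05).

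Partner genes were mostly uncalled in whole kidneys. All of the 35, 12 and 16 genes were tested in Six2 kidneys, and 34, 11 and 16 in Foxd1 kidneys. Over all tested genes 2.88% rose and 4.88% fell with ENL-T1 in Six2 kidneys, 4.34% and 5.28% with ENL-T3, and 2.65% and 7.53% in Foxd1 kidneys. Of 35 genes for collagen processing, 0 rose and 2 fell with ENL-T1 in Six2 kidneys, P3h2 (-0.98 ± 0.07, adjusted p = 0.000201) and Loxl4 (-0.59 ± 0.14, adjusted p = 0.0285), 1 rose and 2 fell with ENL-T3, and none was called in Foxd1 kidneys. Of 12 receptors 1 rose with ENL-T1 and 2 with ENL-T3 in Six2 kidneys, and 1 rose in Foxd1 kidneys (Itga2 (0.62 ± 0.08, adjusted p = 7.81e-05)). Of 16 other basement membrane genes, 1 rose and 1 fell with ENL-T1 in Six2 kidneys, 0 were called with ENL-T3, and 2 rose in Foxd1 kidneys, the laminin chains Lamb3 (0.86 ± 0.16, adjusted p = 0.00119) and Lamc3 (0.77 ± 0.08, adjusted p = 6.67e-06). The 6 skeletal muscle markers summed to 4.79 to 49.9 CPM in ENL-WT, 4.43 to 4.57 CPM in ENL-T1 and 5.63 to 7.34 CPM in ENL-T3 Six2 kidneys, and to 4.84 to 21.3 CPM in ENL-WT and 3.797 to 99.8 CPM in ENL-T1 Foxd1 kidneys. Their part in the collagen values was not tested.

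**Figure D4:**
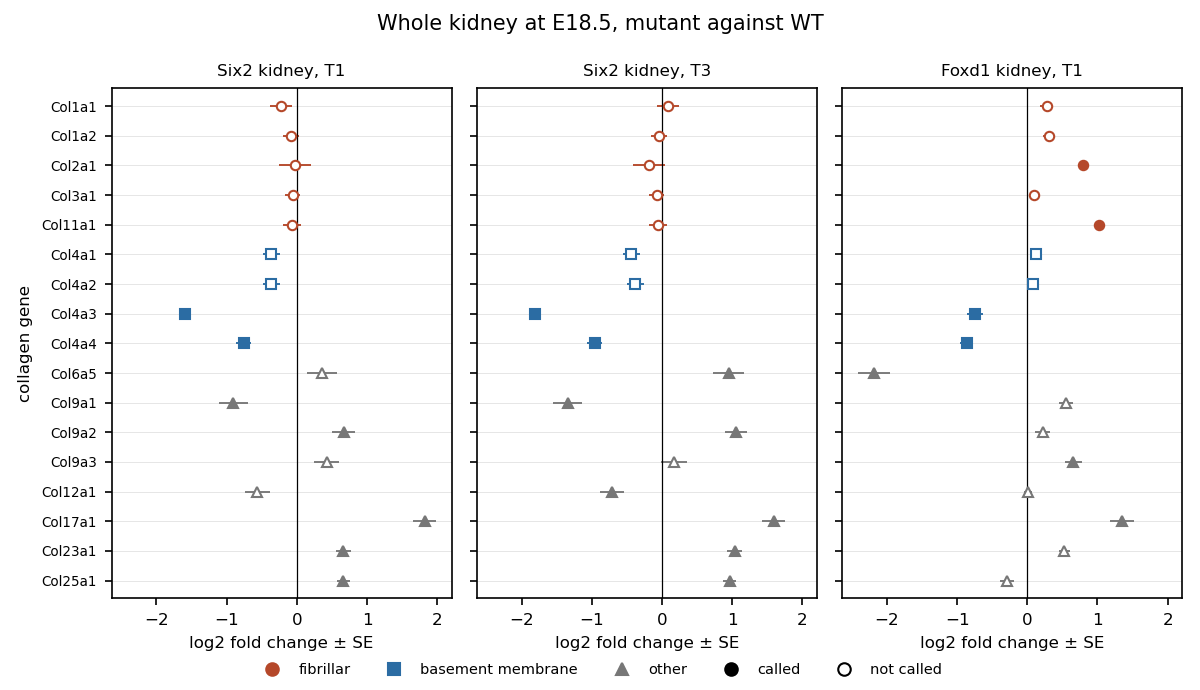
Log2 fold change with its standard error in whole E18.5 kidneys for the members called in any of the whole-kidney comparisons and for Col1a1, Col1a2, Col3a1, Col4a1 and Col4a2: Six2 kidneys with ENL-T1 and ENL-T3 (2 libraries per genotype) and Foxd1 kidneys with ENL-T1 (3 per genotype). Filled symbols were called; Col4a3 and Col4a4 lie left of 0 in all panels, and Col17a1 right of 0.

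The share of each class in all collagen RNA, as summed CPM per kb over the 44 genes, gives the balance in each library. Fibrillar genes made up 22.2 to 25.4% in ENL-WT and 39.7 to 53.5% in ENL-T1 Six2-lineage cells at E14.5, and 12.4 to 14.6% and 18.51 to 21.1% at E18.5. Basement membrane genes made up 55.5 to 59.2% and 27.5 to 39.9% at E14.5, and 78.9 to 81.1% and 67.4 to 72.0% at E18.5. The genotypes did not overlap in either class at either stage. In Foxd1-lineage cells fibrillar genes made up 61.1 to 67.9% in ENL-WT and 65.2 to 66.3% in ENL-T1, with overlap. In whole Six2 kidneys they made up 40.3 to 40.8% in ENL-WT, 41.1 to 41.2% in ENL-T1 and 43.2 to 43.7% in ENL-T3. In whole Foxd1 kidneys they made up 41.1 to 43.7% in ENL-WT and 42.3 to 45.7% in ENL-T1. Basement membrane genes made up 44.6 to 44.7% in ENL-WT, 40.5 to 41.1% in ENL-T1 and 38.2 to 38.3% in ENL-T3 Six2 kidneys, without overlap. In Foxd1 kidneys they made up 42.4 to 44.3% and 39.0 to 43.7%, and in Foxd1-lineage cells 10.8 to 16.8% and 13.3 to 13.9%, with overlap. These shares are descriptions, since 1 abundant gene can set them.

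**Figure D5:**
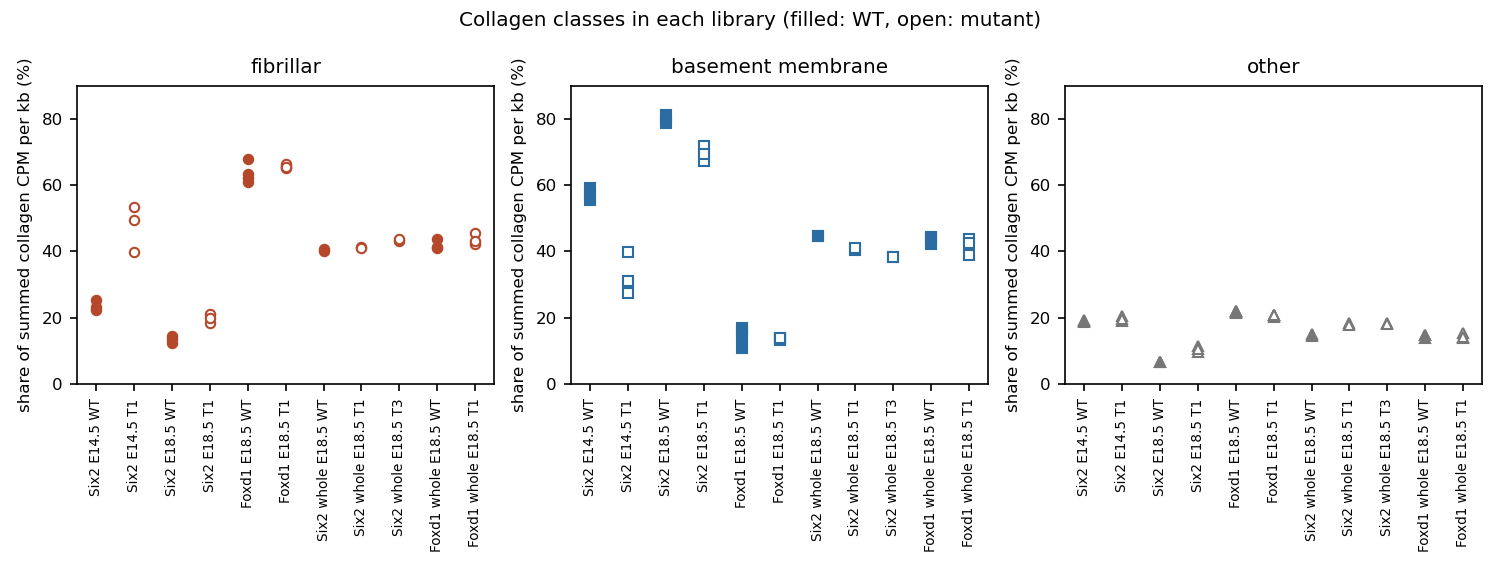
Share (%) of the summed CPM per kb of the 44 collagen genes held by fibrillar, basement membrane and other genes, 1 point per library in each of the 11 groups, filled for ENL-WT and open for mutants. In sorted Six2-lineage cells the ENL-T1 points are higher for fibrillar and lower for basement membrane genes at both stages; in the other groups the genotypes lie closer.

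Across the 6 comparisons of a mutant with its control, 37 of the 44 members were called at least once, as were 22.3% of all genes tested in at least 1 of them. The 7 that were not are Col4a2, Col10a1, Col18a1, Col19a1, Col26a1, Col27a1 and Col28a1. Of these, Col26a1 and Col18a1 were abundant in the Six2 lineage, with Col26a1 at 304, 318 and 322 CPM in ENL-WT and 318, 308 and 312 CPM in ENL-T1 cells at E14.5. Col10a1, the collagen of hypertrophic cartilage, had no count in the 3 ENL-WT libraries of Six2-lineage cells at E18.5, which allows a level of up to 0.0435 CPM in the shallowest of them (3 counts, counting error only). Col28a1 had no count there either and 0.214 to 0.771 CPM in the ENL-WT whole kidneys, and Col19a1 reached 0.409 CPM at most in Six2-lineage cells. Col27a1, a fibrillar gene of cartilage, was at 43.9, 36.2 and 36.0 CPM in ENL-WT and 30.1, 27.9 and 25.1 CPM in ENL-T1 cells at E18.5, a log2 fold change of -0.48 ± 0.10 (adjusted p = 0.00415) that stayed under the fold threshold.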

How the data were processed

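Polyadenylated RNA was sequenced from 32 libraries in 11 groups, named from the sample titles and genotypes. The authors prepared whole kidneys with a stranded kit and sorted cells with an ultra-low-input kit. They aligned reads with HISAT2 to mm10 and counted them by HTSeq, ignoring strand and with no quality minimum. The deposited tables hold these raw counts per gene, whole numbers with no normalization. Without strand, reads from overlapping genes cannot be told apart, and no member shares more than 6.1% of its exon length with another gene. The annotation release is not given in the sources used here. Of 55806 identifiers, 55536 were named by GENCODE vM21.

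Tests were run with edgeR 4.0.16 in R 4.3.3, after filterByExpr (minimum count 10, minimum total 15) and TMM scaling, by quasi-likelihood with Benjamini-Hochberg adjustment over all genes tested. The 3 genotypes of whole Six2 kidneys were fitted together. Stage and its interaction with genotype used the 12 Six2 sorted libraries, lineage and its interaction the 14 sorted libraries from E18.5, and each other comparison its own libraries. Genotype calls needed an adjusted p below 0.05 and over 1.5-fold change, stage and lineage calls below 0.01 and over 2-fold, and interactions below 0.05. Printed CPM share 1 set of TMM factors over the sorted libraries and 1 set for each whole-kidney table, and levels per kilobase divide by summed exon length. The authors used edgeR's exact test, run here as an alternative beside DESeq2 1.42.0. The tests were checked on simulated counts. The members, classes and gene lists were chosen with earlier results of these data known. Values in every library are given for members called in a genotype comparison, in the comparison that called them, and for chains of types I, III, IV and VI where they bear on a result, others by ranges and counts, and up to 4 called genes are named per partner list, those with the largest absolute change. Correlations within groups ran from 0.971 to 0.993 over 33 library pairs, and no pair agreed within sampling noise. Libraries with the same number had correlations of -0.0791 to 0.295 after group means were removed. Libraries with different numbers were not compared in this way, so these values cannot decide whether the numbers pair libraries. The libraries were treated as unpaired. Figures were drawn with Python 3.11.15, pandas 2.3.3 and matplotlib 3.10.9.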

Additional observations from a re-analysis of the deposited data

Results flagged for a closer look

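The effect of ENL-T1 in sorted Six2-lineage cells differed between E14.5 and E18.5 for 12 of the 41 collagen genes tested, by the stage by genotype interaction in edgeR's quasi-likelihood test (adjusted p under 0.05; over all genes 3.94% were higher and 4.22% lower). As log2 values (the ENL-T1 fold change at E18.5 minus that at E14.5), the higher ones were Col22a1 (1.69), Col7a1 (1.30), Col11a2 (0.89), Col4a1 (0.34) and Col4a2 (0.28), and the lower ones were Col4a4 (-6.07), Col4a3 (-4.30), Col1a2 (-2.76), Col9a1 (-1.35), Col20a1 (-1.27), Col27a1 (-0.64) and Col2a1 (-0.51). For Col4a4 the value joins a rise at under 1 CPM at E14.5 with a fall at E18.5, and for Col1a2 a rise with a value under the fold threshold. Stage and dissociation enzyme cannot be told apart. The calls did not all hold: that of Col2a1 was lost on leaving out any of 8 of the 12 libraries in turn, that of Col20a1 for any of 9, and those of Col4a1 and Col4a2 for any of 10 (adjusted p up to 0.0890, 0.112, 0.145 and 0.207), and all 4 were lost with replicate number as a block. Col27a1 was lost without ENL-T1 replicate 1 of E14.5 (log2 value -0.59, adjusted p = 0.0515).

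The effect of ENL-T1 at E18.5 differed between lineages for 24 of the 36 collagen genes tested. As log2 values (the ENL-T1 fold change in Foxd1-lineage cells minus that in Six2-lineage cells), the higher ones were Col4a3 (3.03), Col4a4 (2.17), Col9a1 (1.46), Col4a6 (1.05), Col27a1 (0.82), Col1a2 (0.66), Col11a1 (0.62) and Col18a1 (0.43), and the lower ones were Col8a1 (-3.33), Col6a4 (-2.11), Col25a1 (-1.78), Col15a1 (-1.76), Col24a1 (-1.76), Col14a1 (-1.57), Col6a3 (-1.55), Col6a1 (-1.35), Col6a2 (-1.34), Col16a1 (-1.28), Col1a1 (-1.22), Col3a1 (-1.11), Col5a2 (-1.02), Col8a2 (-0.98), Col13a1 (-0.78) and Col5a1 (-0.70). Lineage and sequencing run cannot be told apart. The call of Col13a1 was lost on leaving out any of 7 of the 14 libraries in turn and that of Col18a1 for any of 4 (adjusted p up to 0.107 and 0.0739). Col4a6 was lost without ENL-T1 Foxd1-lineage replicate 4 (log2 value 0.90, adjusted p = 0.0725), and Col6a4 without ENL-WT Foxd1-lineage replicate 2 or 3 (adjusted p up to 0.0646). With the Six2 libraries thinned to the mean Foxd1 total, an alternative chosen after the data were seen, Col6a4, Col8a2 (log2 value -0.43, adjusted p = 0.559) and Col13a1 were lost.

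A single library stood apart within its group: Col1a1 was at 3393 CPM in replicate 3 of ENL-WT Foxd1-lineage cells, with the other 3 libraries at 2375 to 2474 CPM, a gap above Dixon's critical value. It was the only such value among 67 pairs of a collagen gene (median of at least 10 counts) and a group of 4 libraries, and chance gives about 1 in 20.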

How the results depend on the processing

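The alternatives were edgeR's exact test, DESeq2, library size or RLE factors for scaling, all genes without the count filter, no fold-change threshold, replicate number as a block, other sets of groups in the fit, and each library left out in turn; thinning of the Six2 libraries and leaving out ENL-WT replicate 3 with ENL-T1 replicate 2 at E14.5 were chosen after the data were seen. Of 175 calls of a collagen gene in the 10 comparisons that made any, 142 held in every alternative run on them, and the 33 that did not are named above, with Col25a1 between lineages without the low-count filter (log2 value 0.96 against a threshold of 1). No called value changed sign. Counts of members moved by more than 1.5 times in these cases. At E14.5 in Six2-lineage cells the 4 lower members became 2 with scaling by library size only and 2 without the libraries left out together. Without the fold-change threshold, 10 fell at E18.5 in the Six2 lineage, 5 rose in Foxd1-lineage cells, 8 rose with ENL-T3 in whole kidneys, 16 rose and 6 fell in whole Foxd1 kidneys, and 3 fell with stage. With library size only, 2 fell with stage. The exact test called 1 member higher with ENL-T3 than with ENL-T1. For the stage by genotype interaction, 3 were higher with RLE factors, and 11 were lower with DESeq2 and 14 without the low-count filter. Whether the replicate numbers pair the libraries was not settled. With replicate number as a block (the replicate block) 3 members were higher in that interaction in place of 5, with no other count moved by as much. Leaving out each library in turn gave 20 to 25 up and 2 to 4 down in Six2-lineage cells at E14.5, 20 to 24 up and 3 to 5 down at E18.5, 3 to 4 up and 2 to 3 down in Foxd1-lineage cells, 3 to 6 up and 1 to 6 down and 4 to 7 up and 3 to 6 down in whole Six2 kidneys with ENL-T1 and ENL-T3, 0 between them, 4 to 7 up and 2 to 3 down in whole Foxd1 kidneys, 23 to 25 up and 1 to 2 down with stage, 19 up and 12 to 13 down between lineages, 3 to 5 up and 5 to 12 down for the stage interaction and 6 to 9 up and 14 to 18 down for the lineage interaction. Whole Six2 ENL-WT replicate 2 weighed most in whole kidneys: without it 1 member fell with ENL-T1, and without replicate 1 it was 6. Uncalled values near 0 changed sign. With scaling by library size only these were Col3a1 with ENL-T1 (0.015) and Col1a2 with ENL-T3 (0.033) in whole Six2 kidneys. Leaving out single libraries gave ranges across 0 of -0.45 to 0.063 (Col1a1), -0.23 to 0.10 (Col1a2) and -0.16 to 0.077 (Col3a1) with ENL-T1 and -0.14 to 0.37, -0.18 to 0.14 and -0.18 to 0.057 with ENL-T3, and of -0.15 to 0.093 for Col4a1 and -0.0031 to 0.18 for Col4a2 in Foxd1-lineage cells. The cause of these moves was not tested. Scaling by library size only moved the median log2 value of all genes to 0.11 at E18.5 in the Six2 lineage, -0.12 with stage and -0.20 between lineages, and RLE factors to 0.15 with stage. Depth limits the Foxd1-lineage cells most, where 10 of 44 members were not tested.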
